A study of Oryza sativa with 2 samples.

Results

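The arms of rice chromosome 3 held 605 of the 6672 peaks deposited for OsWRKY11-Myc, a tagged rice transcription factor. A peak is a stretch of genome that an antibody pull-down of the factor (chromatin immunoprecipitation, ChIP) recovered more often than the local background. A peak was counted here when its summit, the base with the most ChIP fragments, lay on chromosome 3 from 1000000 to 18400000 (the left arm, at lower coordinates) or from 20400000 to 35400000 (the right arm). These limits leave out 1 Mb at each end and a 2 Mb window at the centromere. The chromosome was chosen from the same fold enrichments that are described below, so its values are a description and no test was made of them. The left arm held 388 of the peaks over 17.4 Mb and the right arm 217 over 15 Mb, and the peaks of the other 11 numbered chromosomes, 5996 in all, served for comparison.

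Shoots of transgenic rice carrying pUbi:OsWRKY11-Myc, in which a ubiquitin promoter drives the tagged factor, were fixed in 1% formaldehyde. The 2 libraries were 1 anti-Myc ChIP and 1 input, that is, the fixed DNA sequenced without an antibody, and both came from the same transgenic genotype. Both titles carry the tag 30D, while the series' design text gives plants of 3 weeks. Neither library had a replicate, no plants without the tag were analysed here, and every statement therefore concerns these 2 libraries only.

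WRKY proteins are plant transcription factors that take their name from a conserved stretch of amino acids in the domain that contacts DNA. They typically bind the W-box, a short promoter element with a TGAC core, and are best known for roles in defence and stress responses, while some members act on growth and flowering. Heading, the emergence of the panicle, is the rice counterpart of flowering and responds to day length through light receptors such as the phytochromes. The series concerns heading at different amounts of OsWRKY11. The genome build is not given in the sources used here, so positions are those of the deposited list, and the peaks were assigned to no gene and searched for no W-box.

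The name "stronger enrichment" held for the upper tail of the chromosome 3 arm peaks and not for the typical peak. The fold, the authors' ratio of the ChIP signal at the summit to its background, had a median of 2.39 on the arms and 2.39 on the other 11 chromosomes. The quartiles were also alike, at 2.23 and 2.54 in both groups. The folds separated only above this range: the 95th percentile was 3.29 on the arms and 2.99 elsewhere, and the 99th percentile was 4.64 and 3.59. At a limit of 2.5 there were 217 arm peaks (35.9%), against 34.7% on the other chromosomes and 34.8% of the whole list.

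Of the 605 arm peaks, 45 had a fold of at least 3, which is 7.44% (95% Wilson interval 5.61 to 9.81%). The same limit was passed by 250 of 5996 peaks (4.17%, 3.69 to 4.71%) on the other 11 chromosomes and by 4.48% of the whole list. The arm share was 1.78 times that of the other chromosomes. Taken singly, the other chromosomes ran from 3.13% on chromosome 6 to 6.68% on chromosome 5, with a median of 3.76%, so the arms of chromosome 3 lay above each of them. The other chromosomes kept their ends and centromeres, which the arms leave out. The whole of chromosome 3 had 7.23%, and the other 11 without their terminal 1 Mb had 4.11%. The interval of chromosome 5 (4.90 to 9.03%) overlapped that of the arms. These intervals treat each peak as an independent draw and cover counting error only.

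**Figure D1:**
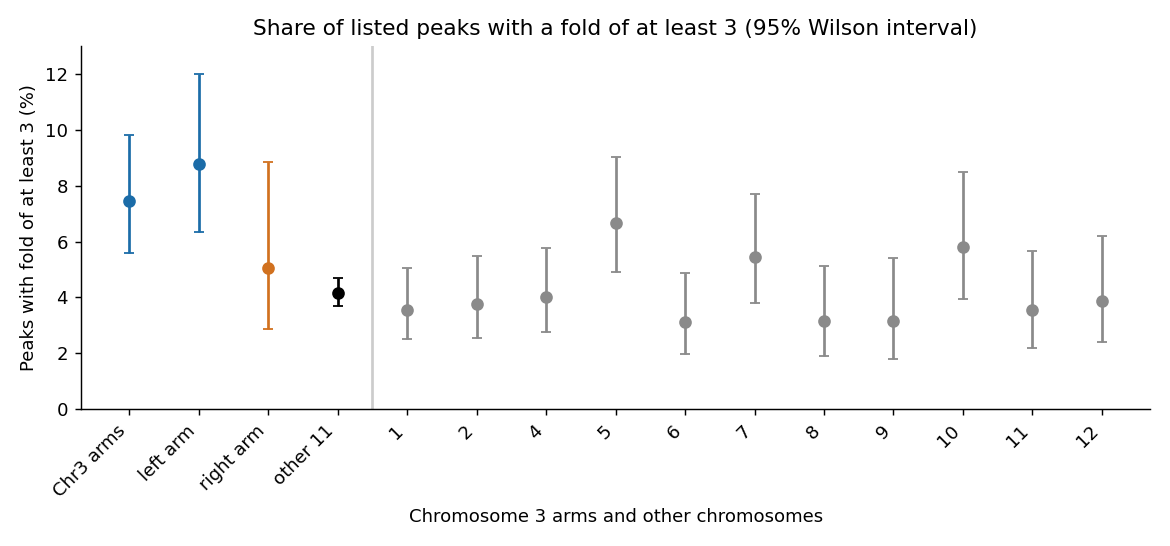
Share of listed peaks with a fold of at least 3 (y axis, percent) for both arms of chromosome 3 together, each arm, the other 11 chromosomes pooled, and each of those chromosomes (x axis). Points are shares and bars are 95% Wilson intervals. The left arm is the highest point at 8.76%, and the right arm at 5.07% lies among the other chromosomes.

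Most of this excess lay on the left arm. Of its 388 peaks, 34 (8.76%) had a fold of at least 3, which is 1.95 such peaks per Mb. The right arm had 11 of 217 (5.07%, 2.85 to 8.85%), or 0.733 per Mb, close to the 0.743 per Mb of the other 11 chromosomes up to their last listed positions. The 95% intervals of the arms overlapped, as drawn in the plot of shares, and the difference between them was not tested. The left arm held 22.3 listed peaks of any strength per Mb, against 14.5 on the right arm and 17.8 on the other chromosomes, whose own densities over their whole lengths ran from 15.1 to 19.5. Sections as long as the left arm held as many peaks elsewhere, such as 394 on chromosome 4 and 387 on chromosome 1, against 388 on the left arm.

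At the highest folds both arms contributed. The limit of 4 was passed by 7 peaks on the left arm (1.80%) and 4 on the right arm (1.84%), together 11 of 605 (1.82%, 1.02 to 3.23%), against 31 of 5996 (0.517%) on the other chromosomes and 0.629% of the whole list. Folds from 3 up to 4 were found at 27 left-arm peaks (6.96%, 4.83 to 9.94%) and at 7 right-arm peaks (3.23%, 1.57 to 6.51%), with overlapping intervals, against 3.65% on the other chromosomes. The limit of 5 was passed by 3 peaks on the left arm and 1 on the right, against 11 on the other chromosomes and 0.225% of the list.

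**Figure D2:**
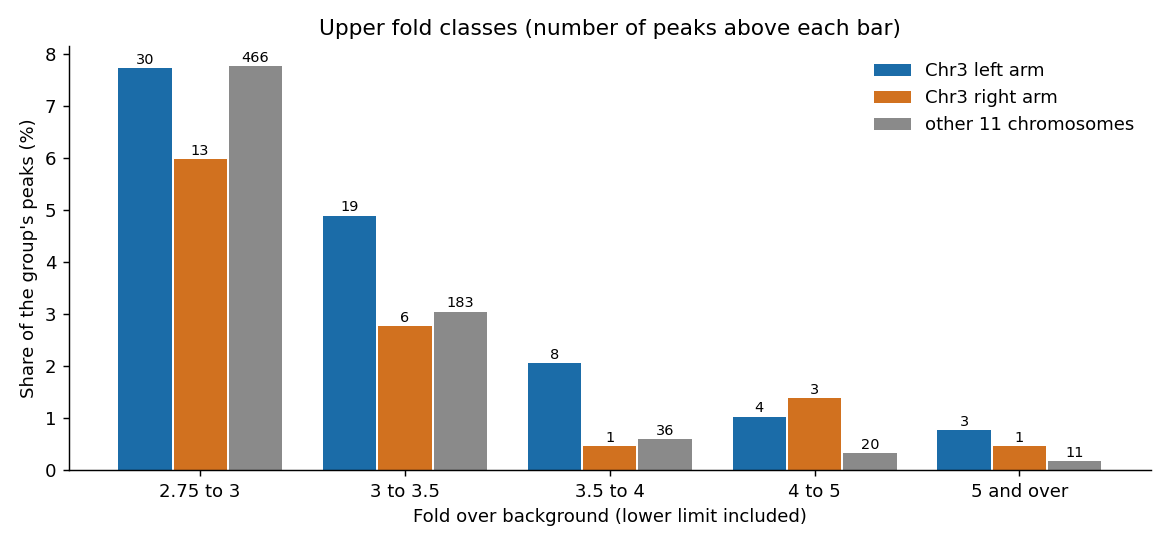
Share of each group's peaks (y axis, percent) in classes of fold over background from 2.75 upwards (x axis), for the left arm, the right arm and the other 11 chromosomes, with the number of peaks above each bar. From 2.75 to 3 the left arm (30 peaks, 7.73%) and the other chromosomes (466 peaks, 7.77%) are level, and the left arm stands above the other chromosomes in each class from 3 upwards.

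The authors' q-value, an estimate of the false discovery rate, gave a smaller contrast at its limit of 0.05. On the arms 102 of 605 peaks passed (16.9%, 14.1 to 20.05%), against 15.6% on the other 11 chromosomes and 15.8% of the whole list, so this share was near the background. By arm it was 73 peaks on the left (18.8%) and 29 on the right (13.4%). All 45 arm peaks with a fold of at least 3 were among those that passed, as were all 250 such peaks on the other chromosomes. They made up 44.1% of the passing peaks on the arms and 26.7% elsewhere. These shares restate the contrast at a fold of 3 over smaller totals. The median fold of the passing peaks was 2.99 on the arms and 2.84 elsewhere.

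The limit of 3 fell between whole numbers of fragments. Over the lowest background, 5.69 fragments, a summit of 19 ChIP fragments had a fold of 2.99 and a summit of 20 a fold of 3.14. Summits of exactly 19 fragments made up 4.63% of arm peaks and 3.85% of the others, whereas summits of 20 were rarer on the arms (8 peaks, 1.32%) than elsewhere (2.45%). At 21 fragments the shares were 1.32% on the arms and 1.20% elsewhere, and at 22 fragments they were 2.15% (13 arm peaks) and 0.817%. The contrast with the other chromosomes therefore did not grow evenly with fragment number.

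The strongest chromosome 3 site carried the most ChIP fragments of the 45 arm peaks with a fold of at least 3. It spanned 5944468 to 5944735 on the left arm, with 113 ChIP fragments at its summit and a fold of 11.4 (95% interval 9.40 to 13.7 from the counting error of the ChIP fragments), rank 2 of all listed peaks. Its background of 9.01 fragments corresponds to 22 input fragments. The ratio of ChIP to input scaled for depth, whose interval also takes in the error of the input count, was 12.5 (7.89 to 20.8). A weak peak lay 1.76 kb away, from 5946202 to 5946383, and was enriched 2.39-fold with 19 fragments.

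The next site was 282 kb further along and had a close companion. From 6226870 to 6227255 a peak with 42 fragments over the lowest background reached 6.43-fold (4.68 to 8.64). The peak at 6259723 to 6259942, whose summit lay 32.7 kb away, reached 4.64-fold (3.18 to 6.55) with 30 fragments. Between them lay 3 weak peaks, with folds from 2.03 to 2.69.

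The other left-arm sites with a fold of at least 4 lay between 3377536 and 13468814. The peak from 3377536 to 3377774 was enriched 4.64-fold (3.18 to 6.55) with 30 fragments, and that from 5409078 to 5409342 was enriched 4.04-fold (2.69 to 5.85) with 26. Neither had another listed peak within 20 kb. Further in, 44 fragments between 11502634 and 11502825 gave a fold of 5.37 (3.94 to 7.17), or a scaled ratio of 5.97 (3.38 to 10.97) over 18 input fragments. It was narrow, at 192 bp, and its summit lay 18 bp from an end.

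**Figure D3:**
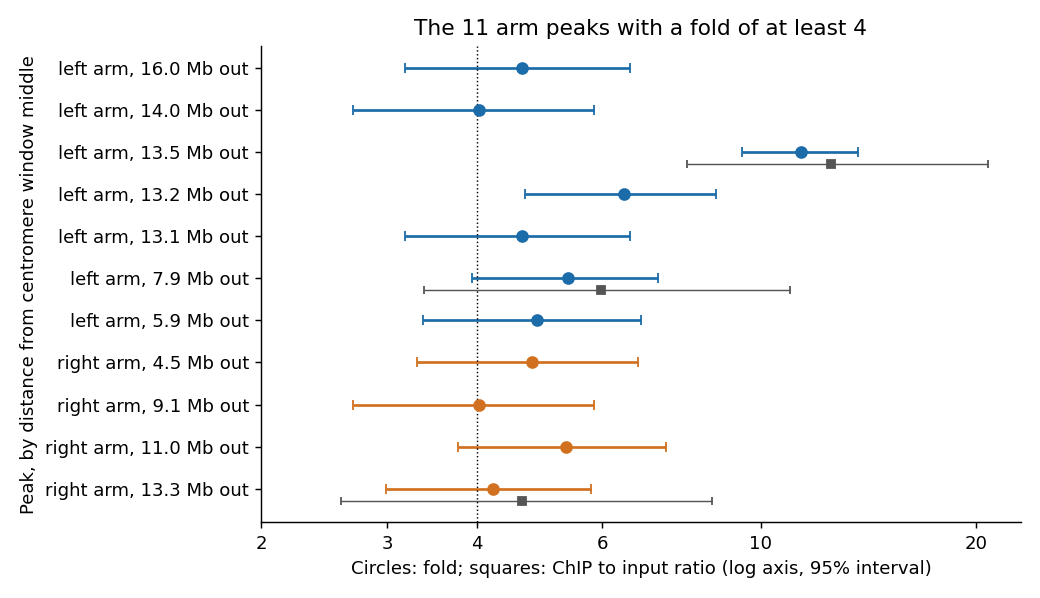
Fold over background (circles, log x axis) with 95% intervals for the 11 arm peaks with a fold of at least 4, in order along the chromosome (y axis: arm and distance from the middle of the centromere window in Mb). Grey squares give the scaled ChIP to input ratio with the counting error of both libraries, for the 3 of these peaks whose background was a whole number of input fragments. The fold interval of the site with a fold of 11.4 lies above those of the other 10, and its ratio interval, from 7.89, overlaps the ratio intervals of the other 2 sites that have one.

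On the right arm the 4 strongest sites lay far apart. The innermost, from 23918252 to 23918730, was enriched 4.79-fold (3.30 to 6.73) with 31 fragments and no other listed peak within 120 kb. The highest of this arm, from 30366086 to 30366351, was enriched 5.34-fold (3.77 to 7.37) with 35 fragments. The outermost, from 32661331 to 32661585, was enriched 4.21-fold (2.98 to 5.79) with 36 fragments, and over its 19 input fragments the scaled ratio was 4.62 (2.58 to 8.53). The remaining site, from 28532103 to 28532361 and enriched 4.03-fold (2.69 to 5.84) with 26 fragments, closed a row of 3 peaks with folds of at least 3. The others of that row, at 28493587 to 28493787 and 28516187 to 28516613, had folds of 3.14 and 3.29. Apart from the site with a fold of 11.4, the fold intervals of all of these strong peaks on both arms overlapped each other. With the error of the input included, the ratio interval of that site was 7.89 to 20.8. It overlapped those of the sites from 11502634 (3.38 to 10.97) and from 32661331 (2.58 to 8.53) as well. Overlap of separate intervals does not decide the order of the sites, which was not tested.

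The left-arm peaks with a fold of at least 3 were most frequent in the outermost 5.8 Mb of that arm. From 1000000 to 6800000, 19 of 136 peaks reached the limit (14.0%, 9.13 to 20.8%), among them 5 of the 7 left-arm peaks with a fold of at least 4. The middle 5.8 Mb had 8 of 150 (5.33%) and the 5.8 Mb next to the centromere window 7 of 102 (6.86%). The median fold did not follow this order, at 2.35 in the outermost part and 2.39 in the other parts. Without the outermost part the arms had 26 of 469 such peaks, a share of 5.54%.

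The right arm showed no such outer excess. Its 5 Mb next to the centromere window had 1 peak with a fold of at least 3 among 60 (1.67%, 0.295 to 8.86%), against 5 of 76 (6.58%) in the middle 5 Mb and 5 of 81 (6.17%) in the outermost. Peaks past q were also least frequent next to the centromere window, with 4 of 60 (6.67%) there, 13 of 76 (17.1%) in the middle and 12 of 81 (14.8%) in the outermost part. In the centromere window itself 0 of 19 peaks had a fold of at least 3, with an upper Wilson limit of 16.8%; by the rule of 3 counts, a count of 0 allows a share of up to 15.8%.

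**Figure D4:**
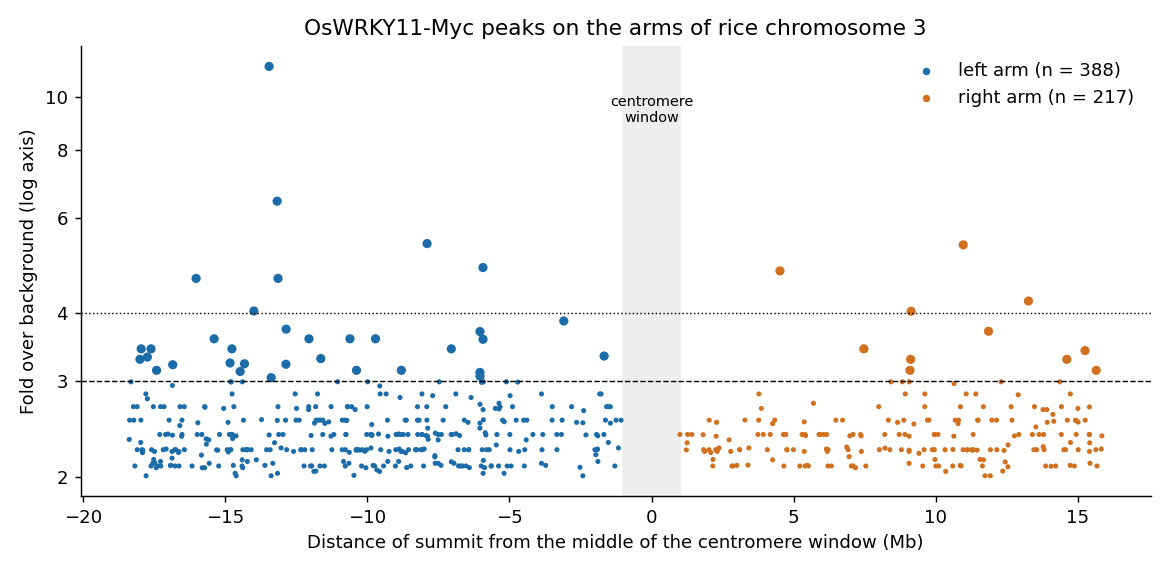
Fold over background (y axis, log scale) of each of the 605 arm peaks against the distance of its summit from the middle of the centromere window (x axis, Mb, negative on the left arm). Dashed and dotted lines mark folds of 3 and 4, and larger points are peaks with a fold of at least 3. The outer left arm carries the densest group above the dashed line, and the inner right arm has 1 point above it.

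Sections of equal length on the other chromosomes gave a scale for these counts. In each other chromosome the 17.4 Mb section with the most peaks at a fold of at least 3 was taken. The highest of these, on chromosome 5, held 34 among 355 listed peaks (9.58%), the same number as the left arm of chromosome 3. The next highest, on chromosome 1, held 24. The sections were placed again without peaks whose background was at least 2 times the lowest. The highest on chromosome 5 then held 24 of 330 (7.27%), while the left arm of chromosome 3 kept 34, now among 384 (8.85%). For sections of 5.8 Mb the highest count was 16 of 136 on chromosome 5, or 12 of 143, on chromosome 1, without such backgrounds, against 19 of 136 in the outermost left arm of chromosome 3. These sections were placed where the count was highest. Those of chromosome 3 had fixed limits, but the chromosome was chosen from these same folds. Its outermost left part, added after values were seen, had the highest share of the parts described. Both sides were therefore selected for high counts, and the comparison is no test.

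Windows rich in listed peaks were not always rich in strong ones on the left arm. Its 17 full 1 Mb windows held from 9 to 31 listed peaks, with a median of 23. The fullest were the windows from 2000000 and from 11000000, with 31 each, yet each held only 1 peak with a fold of at least 3. The emptiest was the window from 15000000, with 9 peaks and none past that limit. The windows from 1000000, 6000000 and 13000000 held 5 such peaks each, among 29, 20 and 28 listed ones. On the right arm the 15 windows held from 8 to 21 peaks, with a median of 14. The fullest, from 28400000, also held the most peaks with a fold of at least 3, namely 3, and the emptiest, from 20400000, held none.

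The arms held 1.39 peaks with a fold of at least 3 per Mb, against 0.743 on the other 11 chromosomes. Some gaps between these arm peaks were long, and gaps were not measured elsewhere. The widest ran from the summit at 17732341 on the left arm across the centromere window to that at 23918394 on the right, a distance of 6.19 Mb with 50 arm peaks of lower fold in between. The next were 2.95 Mb on the right arm and 2.84 Mb on the left. The median distance between neighbouring peaks with a fold of at least 3 was 291 kb on the left arm and 1120 kb on the right.

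**Figure D5:**
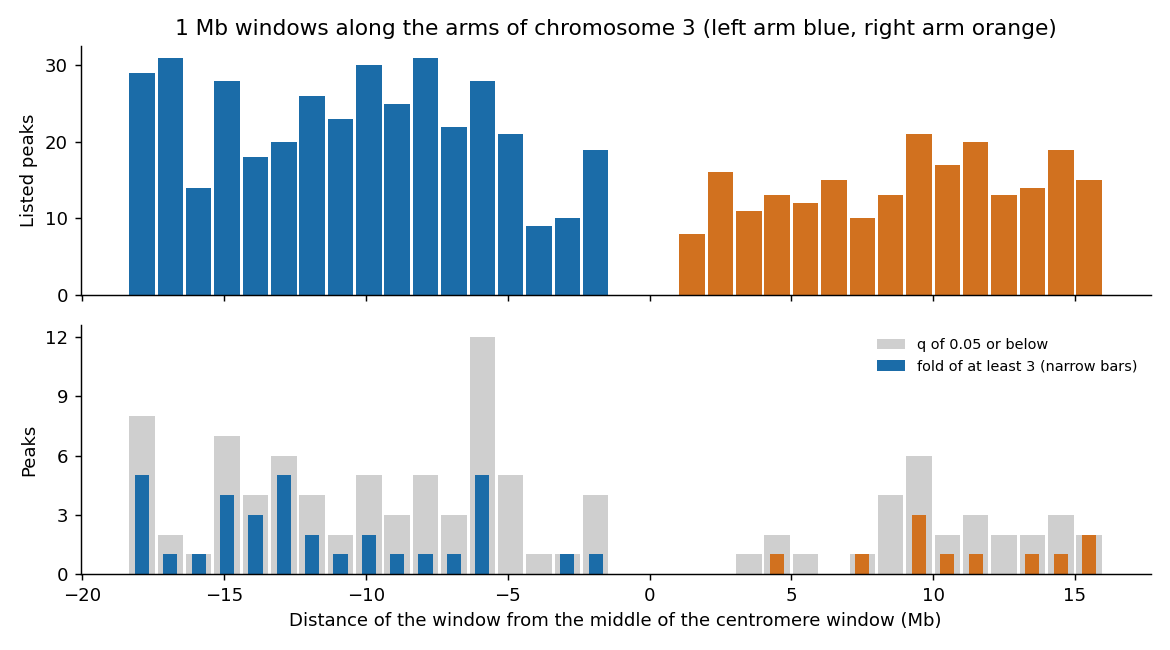
Number of listed peaks (upper panel) and of peaks with q of 0.05 or below (lower panel, wide grey bars) or a fold of at least 3 (lower panel, narrow coloured bars) in 1 Mb windows, by distance from the middle of the centromere window (x axis, Mb). The tallest grey bar is the left-arm window from 13000000, with 12 of its 28 peaks past q.

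The left-arm window with 12 peaks past q contained both of the dense runs found on the arms. A run was a series of at least 4 arm peaks past q with gaps of at most 20 kb. Runs were not counted on the other chromosomes, so whether they are unusual for this list is unknown. The first run spanned 3.86 kb from 13362416 to 13366271 and held 4 peaks. Its highest, from 13364078 to 13364670, was enriched 3.70-fold (2.54 to 5.23) with 30 fragments, or a scaled ratio of 4.07 (2.19 to 7.75) over 18 input fragments. The other 3 peaks had 21 to 24 fragments and folds from 2.72 to 3.11, so the intervals of all 4 overlapped.

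The second run spanned 10.7 kb from 13468538 to 13479199 and held 5 peaks past q among 6 listed. Its first peak, ending at 13468814, was enriched 4.85-fold (3.37 to 6.79) with 32 fragments, and the next, from 13469297 to 13469546, was enriched 3.58-fold (2.44 to 5.09) with 29. The remaining 3 had folds of 2.66 to 2.99. The widest arm peak, 611 bp from 13477230 to 13477840, was among them. Neither run lay over high input coverage: the median background was 1.21 times the lowest in the first run and 1.02 times in the second. Without the 9 peaks of both runs, 40 of 596 arm peaks had a fold of at least 3 (6.71%).

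Outside these runs most passing peaks were isolated from each other. Of the 102 arm peaks past q, 74 had no other passing peak within 20 kb, 16 formed pairs and 3 lay in 1 group. The same grouping of passing peaks was not counted on the other chromosomes. Counting all listed peaks, 355 of the 605 arm peaks (58.7%) had a neighbour within 20 kb, against 55.8% on the other chromosomes and 56.1% of the whole list. On the left arm this was 63.1% and on the right arm 50.7%, in the same order as the number of peaks per Mb. The median distance to the nearest listed peak was 12.2 kb on the left arm, 19.6 kb on the right and 16.8 kb on the other chromosomes.

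High input coverage was rare on the arms. The background rises above its lowest value where the input is locally richer. It was at least 2 times the lowest at 5 of the 605 arm peaks (0.826%). The share was 2.15% on the other 11 chromosomes, 1.71% there without their terminal 1 Mb, and 2.01% of the whole list. Single other chromosomes ran from 0.187% on chromosome 7 to 5.75% on chromosome 11, so the arms lay within their range. None of the 5 arm peaks had a fold of 3, so the 45 arm peaks past that limit were the same with and without them. On the other chromosomes 23 of the 250 peaks lay over such a background, and without them the share there was 3.87%. A background at the lowest value was found at 58.0% of arm peaks, against 57.9% on the other chromosomes and 58.0% of the list.

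All 5 peaks over high background passed q, as did 122 of the 129 such peaks on the other 11 chromosomes. The peak at 11539911 to 11540090, 37.4 kb from the site with a fold of 5.37, was enriched 2.34-fold (1.99 to 2.74), with 156 ChIP fragments, 161 input fragments and a background 11.6 times the lowest. A pair lay at 14032938 to 14033125 and 14033579 to 14034063, with 117 and 90 fragments and folds of 2.73 (2.26 to 3.27) and 2.67 (2.15 to 3.27), which did not differ beyond their intervals. The peak from 13547145 to 13547618 was enriched 2.41-fold (1.80 to 3.17) with 49 fragments. The only right-arm peak of this kind, from 27611709 to 27611982, was enriched 2.26-fold (1.71 to 2.93), with 54 ChIP fragments and 57 input fragments.

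Peaks with higher folds were wider on the arms and elsewhere. The median width over all peaks was 228 bp on the arms and 231 bp on the other chromosomes. At folds of 3 and over, arm peaks were wider (median 255 bp) than the remaining arm peaks (224 bp), and on the other chromosomes the corresponding widths were 272 and 229 bp. The narrowest width, 180 bp, was shared by 9 arm peaks. Peaks under 200 bp made up 11.1% of the arm peaks at or over a fold of 3 and 30.0% of those under it. The corresponding shares on the other chromosomes were 8.40% and 25.8%. A summit at most 25 bp from an end was found at 5 of the 11 arm peaks with a fold of at least 4, against 4 of 31 on the other chromosomes, and at 1 of the 34 with folds from 3 up to 4, against 7 of 219 elsewhere. Below a fold of 3 it was found at 77 of 560 arm peaks and 657 of 5746 elsewhere. How width and summit position depend on fragment number was not tested.

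The position limits of the rule cut through no strong site. The peaks nearest to the 4 limits had folds of 2.34, 2.54, 2.39 and 2.38 inside and of 2.38, 2.75, 2.09 and 2.24 outside, in order along the chromosome. The summit at 20400208 lay 208 bp inside its limit. The left end outside the arms held 22 peaks and the right end 18, with 1 and 2 peaks at a fold of at least 3.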

How the data were processed

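Tools in the submitters' processing notes are MACS2 2.2.7.1, BWA 0.7.12-r1039 and Trimmomatic 0.36; their settings, the build and duplicate handling are not stated there. The authors deposited 1 list of ChIP peaks called against input. Each peak has, per the file headers, a pileup (signal: ChIP fragments at the summit), a fold enrichment (ratio over background) and −log10 p-values and q-values. Total reads per library are unknown.

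Work on the list used pandas 2.3.3, scipy 1.17.1 and numpy 2.4.6 under Python 3.11.15 (figures: matplotlib 3.10.9). The background was solved as (pileup + 1)/fold − 1. With it the Poisson upper tail matched the deposited −log10 p-values with a largest deviation of 0.000336. The lowest common background was 5.69 fragments (tolerance 0.001). Of 1014 backgrounds over 1.15 times this, 828 were whole multiples of 0.410 to within 0.05 of a fragment, read as the weight of 1 input fragment. Fold intervals are exact Poisson limits of the pileup with the background fixed, and scaled ratios use exact Clopper-Pearson limits. All intervals are 95% and cover counting error only. Those of folds and ratios treat each fragment as an independent count, and would be too narrow if PCR copies were kept. The arithmetic was checked on simulated data.

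Peaks named were all arm peaks with a fold of at least 4 or a background at least 2 times the lowest, the runs, the peaks at the limits of the rule, the width extremes and the extreme windows. Neighbours given beside them, the sections of each arm, the 95th and 99th percentiles and the equal-length sections elsewhere were added after values were seen. The members and limits were chosen with earlier results of these data known.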

Additional observations from a re-analysis of the deposited data

How the results depend on the processing

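The arm share at a fold of at least 3 (7.44%) lay above that of the other 11 chromosomes under all 15 alternatives. Of these, 5 were chosen after the data were seen. All draw on the list by which the chromosome was chosen, so their shared direction is not independent support. The arm share was 35.9% (34.7% elsewhere) at a fold of 2.5, 1.82% (0.517%) at 4 and 0.661% (0.183%) at 5. With the limit lowered to take in summits of 19 fragments, it was 9.92% (5.60%). With a summit of at least 20 fragments in place of the fold, and without high backgrounds, it was 9.33% (6.94%), a smaller contrast. Among peaks past q it was 44.1% (26.7%). In another alternative, all listed peaks of any q were joined into chains with gaps of at most 20 kb. With only the peak of highest fold kept in each chain, the arm share was 9.97% (5.55%). Keeping the highest fold favours peaks past the limit in both groups. With no fragment added to pileup and background it was 14.5% (12.1%), and without the outermost 5.8 Mb of the left arm 5.54% (4.17%).

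In the order no added fragment, past q, 1 per chain, the left arm gave 16.5%, 46.6% and 12.2%. The right arm gave 11.1%, under the 12.1% elsewhere, with no added fragment, and 37.9% past q. The share past q became 11.9% (8.72% elsewhere) at a q of 0.01 and 26.1% (24.7%) at 0.1. The median fold was 2.99 past q and 2.60 with no added fragment (2.61 elsewhere), and the median width past q was 253 bp. The 605 peaks became 102 past q and 381 with 1 per chain. A neighbour lay within 10 kb for 41.3% and within 50 kb for 86.1%. Of the 41 alternatives, 19 stayed within the counting interval of the arm value or left the 605 peaks as they were. The limit of 20 fragments was among these, although the share elsewhere rose with it. The cause of these shifts was not tested. No paired analysis was possible because each group had 1 library, and none could be left out. All 34 arm peaks with folds from 3 up to 4 had a lower 95% limit under 3 (highest 2.70), so at this depth which peaks pass a fold limit is uncertain.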
